A study of Mus musculus with 6 samples.

Results

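The genes described here are 10 genes of tendon and of the enthesis, the zone where tendon is anchored in bone: Scx, Mkx, Tnmd, Tppp3, Comp, Thbs4, Chad, Cilp, Cilp2 and Clec11a. They were picked by name, and each matched 1 row of the 25721 genes in the authors' count table; all 10 passed the filter on low counts, as did 15609 genes in all. The RNA came from tibia cortex of wild-type mice, after the bone ends were cut off and the marrow was washed out, so tendon was not the tissue aimed at. In the 3 CKD libraries the mice had eaten a diet with 0.2% adenine by weight, a model of chronic kidney disease, for 4 weeks from 8 weeks of age. In the 3 control libraries they had eaten a diet without adenine over the same period. Bones of both groups were taken at 12 weeks, and polyA RNA was sequenced. Strain and sex are not named in the labels, nor is it said whether the libraries stem from separate mice, so that p-values here cover the scatter among these libraries, which may be technical. Library names are CKD 1 to CKD 3 and control 1 to control 3.

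Tendon cells form under the transcription factor scleraxis (Scx), a basic helix-loop-helix protein that binds short DNA motifs called E-boxes, and mature under the homeobox factor mohawk (Mkx). They lay down collagen fibres together with thrombospondins, leucine-rich repeat proteins and other proteins that organise those fibres, and at the enthesis this matrix grades through fibrocartilage into bone. On a long bone such cells sit at the outer surface, where tendons and muscles attach.

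Tnmd, Tppp3, Comp, Thbs4, Chad and Cilp2 were lower in the CKD libraries, with group means of 7.40% (Chad) to 23.9% (Thbs4) of the control mean and with every CKD library below every control library. Scx, Mkx and Clec11a had overlapping groups and log2 fold changes of -0.72 to -0.14. Cilp was nearly absent from CKD 1 but highest of the 6 libraries in CKD 2. Over all genes, edgeR's quasi-likelihood test passed 0 of the 10 and 0 of the 15609 (0% called), the smallest adjusted p, 0.169, being that of Comp among others. At an unadjusted p under 0.05 the same edgeR fit had 6 of the 10 lower and 0 higher, against 6.49% of all tested genes lower and 4.22% higher. The DESeq2 Wald test on the same counts passed 5 of the 9 to which it gave an adjusted p, namely Tnmd, Tppp3, Comp, Chad and Cilp2, all of them lower, against 1.29% of genes called lower, 0.642% called higher and 1.93% called in all. The 6 genes whose CKD libraries all lay below the controls compare with 8.86% of all tested genes; 0 of the 10 had all CKD libraries above the controls, as did 7.68% of all. The median log2 fold change of the 10 was -2.15 and that of all tested genes was -3.85e-07, and 6 of the 10 had -2 or lower, as did 1.8% of all tested genes. The members were chosen with these results known, so these shares describe them and test nothing. Without CKD 2, edgeR passed 7 of the 10 (these 6 and Cilp), with 334 genes passing in all; without any other single library it passed 0.

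**Figure D1:**
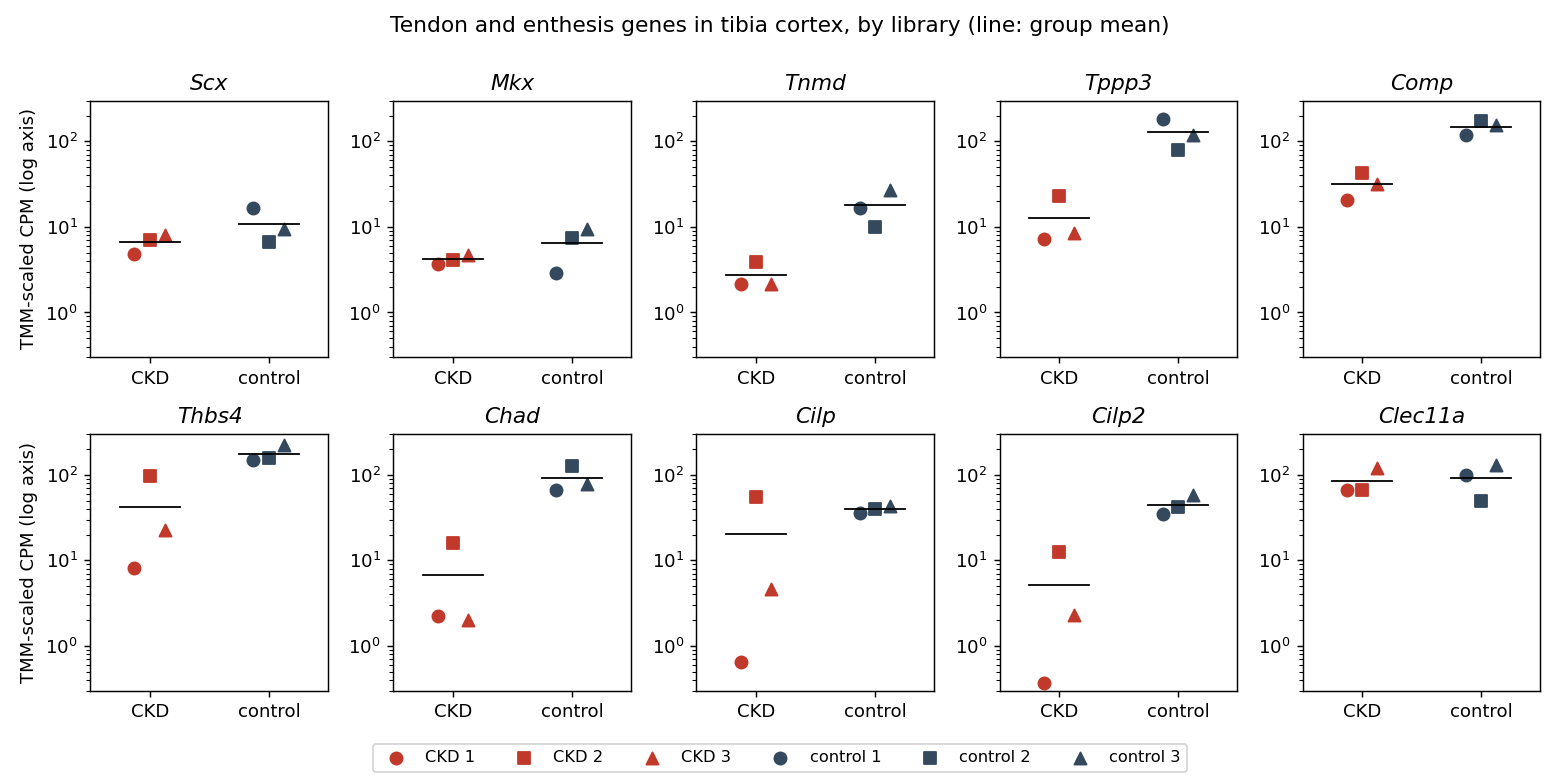
Level of each of the 10 genes in every library, in CPM, counts scaled to library size by the TMM method, on a log axis; points are libraries and the line is the mean of 3. In Tnmd, Tppp3, Comp, Thbs4, Chad and Cilp2 the CKD points all lie below the control points, whereas in Scx, Mkx, Cilp and Clec11a the groups overlap.

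Total counts were 9977694 to 12044459 in the CKD libraries and 10549071 to 14598010 in the control libraries. Transcripts of other tissues differed widely between libraries. The summed level of 16 skeletal muscle genes was 3897, 98146 and 7873 CPM in CKD 1 to 3 and 66941, 25392 and 109925 CPM in control 1 to 3. That of 14 kidney tubule genes was 3300, 1796 and 1006 CPM in CKD 1 to 3 and 1242, 1176 and 885 CPM in control 1 to 3. CKD 2 thus held muscle transcripts within the control range, and CKD 1 and CKD 3 held fewer than any control library. Kidney transcripts were above every control library in CKD 1 and, less so, in CKD 2, whereas CKD 3 lay within the control range. Aqp1 gave much of the kidney sums and overlapped between the groups, at 877 to 996 CPM in CKD and 828 to 1099 CPM in control bone. Centred over all 6 libraries, the log2 levels of the 14 kidney genes averaged 3.17, 1.06 and -0.87 for CKD 1 to 3. Control 1 to 3 stood at -0.65, -1.22 and -1.49. Bone transcripts were plentiful, 10 osteoblast genes summing to 16364 to 42244 CPM in the CKD libraries and 14894 to 17231 CPM in the control libraries. In RNA from whole tissue, fewer cells of a type and less RNA per cell cannot be told apart.

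Mkx (chromosome 18, 6934518 to 7004780; here and below, positions are in the files' own coordinates) had the lowest group means of the 10 per gene length, at 0.990 ± 0.109 FPKM in the CKD libraries and 1.51 ± 0.797 FPKM in the control libraries (SD, n = 3 each), FPKM being the authors' level scaled by gene length and library size. It had 3.70, 4.09 and 4.73 CPM in CKD 1 to 3 and 2.87, 7.40 and 9.42 CPM in control 1 to 3. The CKD values lay close together, inside the control range. Its log2 fold change was -0.65 with a 95% interval of -1.81 to 0.51 (edgeR adjusted p = 0.633), and with 1 library left out it ran from -1.01 (without control 1) to -0.27 (without control 3). In the files' annotation Mkx shares 2104 bases with Gm2350, a long non-coding RNA gene on the same strand. Reads of that stretch cannot be assigned to either gene with certainty, whatever the strand setting.

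The scleraxis gene Scx (chromosome 15, 76341652 to 76343658) had 4.81, 7.03 and 8.03 CPM in CKD 1 to 3, against 16.8, 6.60 and 9.42 CPM in control 1 to 3. The groups overlapped through control 2, which lay below CKD 2 and CKD 3. The log2 fold change was -0.72 with a 95% interval of -1.72 to 0.28 (edgeR adjusted p = 0.569), and with 1 library left out it ran from -0.98 (without control 2) to -0.27 (without control 1). In the files' annotation Scx lies wholly within Bop1, a ribosome biogenesis gene on the opposite strand, and no source used here says whether counting used strand, so reads of the pair cannot be told apart with certainty. Bop1 itself had 32.5, 28.3 and 30.3 CPM in CKD 1 to 3 and 27.9, 27.0 and 20.2 CPM in control 1 to 3. A fold change as low as that of Comp, -2.24, lay outside the intervals of both Scx and Mkx, and both intervals include 0.

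Scleraxis is known to act on genes of the tendon matrix and surface, Tnmd among them, through the E-box CANNTG, which reads the same on both strands. RefSeq promoter windows (GRCm38.p6, from 250 bases before to 50 bases after the gene's start) were at hand for 6 of the 10 genes: Tnmd, Thbs4, Chad, Cilp, Cilp2 and Clec11a. The windows of the 5 genes that were lower in CKD 1 and CKD 3 than in any control library are shown 5′ to 3′ on the gene's strand, with each E-box in capitals, so that the motif can be set beside the values that follow.
Tnmd (chrX:133850758-133851057, plus strand): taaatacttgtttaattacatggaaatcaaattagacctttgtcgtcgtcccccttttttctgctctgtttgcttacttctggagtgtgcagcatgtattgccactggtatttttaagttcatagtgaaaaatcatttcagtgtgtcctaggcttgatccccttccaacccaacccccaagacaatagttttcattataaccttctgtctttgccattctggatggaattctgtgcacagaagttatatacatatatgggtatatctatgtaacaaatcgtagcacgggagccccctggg
Chad (chr11:94564797-94565096, plus strand): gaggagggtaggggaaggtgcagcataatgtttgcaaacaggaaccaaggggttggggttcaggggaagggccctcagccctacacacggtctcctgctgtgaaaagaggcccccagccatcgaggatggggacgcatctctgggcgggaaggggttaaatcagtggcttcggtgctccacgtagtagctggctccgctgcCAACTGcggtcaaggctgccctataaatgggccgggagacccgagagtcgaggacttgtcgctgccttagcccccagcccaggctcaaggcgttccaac
Thbs4 (chr13:92794769-92795068, minus strand): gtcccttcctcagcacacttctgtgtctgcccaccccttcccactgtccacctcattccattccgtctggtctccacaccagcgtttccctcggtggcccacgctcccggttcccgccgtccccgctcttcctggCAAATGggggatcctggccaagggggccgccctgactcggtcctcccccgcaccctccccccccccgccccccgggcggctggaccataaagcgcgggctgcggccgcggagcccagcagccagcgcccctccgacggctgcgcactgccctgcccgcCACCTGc
Cilp2 (chr8:69887343-69887642, minus strand): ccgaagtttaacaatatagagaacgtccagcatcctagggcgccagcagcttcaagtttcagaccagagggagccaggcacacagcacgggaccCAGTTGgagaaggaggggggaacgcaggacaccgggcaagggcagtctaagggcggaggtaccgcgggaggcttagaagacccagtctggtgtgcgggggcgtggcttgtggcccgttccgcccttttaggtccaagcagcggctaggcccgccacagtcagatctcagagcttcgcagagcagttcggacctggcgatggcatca
Cilp (chr9:65264930-65265229, plus strand): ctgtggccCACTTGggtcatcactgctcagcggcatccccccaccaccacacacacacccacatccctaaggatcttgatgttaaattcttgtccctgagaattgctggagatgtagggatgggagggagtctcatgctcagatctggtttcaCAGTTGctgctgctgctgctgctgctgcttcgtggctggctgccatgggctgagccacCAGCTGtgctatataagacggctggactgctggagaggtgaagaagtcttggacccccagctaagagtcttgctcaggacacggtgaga
Cilp held 3 E-boxes, Thbs4 held 2, Chad and Cilp2 held 1 each, and the windows of Tnmd and Clec11a held 0. Of all 32851 promoter windows of this length, 72.3% held at least 1 E-box and 17.6% held 3 or more. Tnmd, with 0, was among the genes that were lower and Clec11a, also with 0, was not. A match is a string of letters and was not tested as a binding site.

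Tnmd (chromosome X, 132751729 to 132766326) encodes tenomodulin, a membrane glycoprotein that is a classic marker of mature tendon cells. Its level was 2.13, 3.88 and 2.18 CPM in CKD 1 to 3, against 16.7, 9.86 and 27.0 CPM in control 1 to 3. The highest CKD library, CKD 2, lay under the lowest control library, control 2. The log2 fold change was -2.71 (SE 0.48; edgeR adjusted p = 0.180, DESeq2 adjusted p = 1.46e-04). With 1 library left out it ran from -3.06 to -2.28, and of these fits edgeR passed Tnmd only in that without CKD 2 (adjusted p = 0.0439); it also passed with no filter on low counts (0.0214).

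Tppp3 (chromosome 8, 106194125 to 106198158) encodes a tubulin-binding protein that marks cells of the tendon sheath and tendon progenitors. Its level was 7.21, 22.9 and 8.48 CPM in CKD 1 to 3, against 184, 78.4 and 120 CPM in control 1 to 3. No library of one group reached the range of the other. The log2 fold change was -3.31 (SE 0.54; edgeR adjusted p = 0.180, DESeq2 adjusted p = 2.79e-07), and -4.03 without CKD 2 (edgeR adjusted p = 0.0382).

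Comp and Thbs4 belong to the thrombospondin family, secreted proteins that bind collagen and calcium. Comp (chromosome 8, 70826208 to 70834716), cartilage oligomeric matrix protein, is a load-responsive protein of tendon and cartilage. It had 20.4, 42.1 and 32.1 CPM in CKD 1 to 3, against 118, 173 and 155 CPM in control 1 to 3. It had the smallest edgeR p of the 10, with a log2 fold change of -2.24 and an SE of 0.32 (edgeR adjusted p = 0.169, DESeq2 adjusted p = 2.94e-06). Comp had -2.50 without CKD 2 (edgeR adjusted p = 0.0382), and edgeR also passed it with no filter on low counts (0.0117).

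Thbs4 (chromosome 13, 92888098 to 92931326), thrombospondin 4, is found at the junctions of tendon with muscle and in tendon itself. It had 8.23, 96.0 and 22.7 CPM in CKD 1 to 3, against 148, 159 and 224 CPM in control 1 to 3. CKD 2 was 11.7 times as high as CKD 1 and 4.23 times as high as CKD 3, yet below every control library. Thbs4 had a log2 fold change of -2.07 (SE 0.81; edgeR adjusted p = 0.449, DESeq2 adjusted p = 0.0760), and -3.53 without CKD 2 (edgeR adjusted p = 0.0391). Within the family, the Thbs4 to Comp ratio was 0.403, 2.28 and 0.706 in CKD 1 to 3 and 1.25, 0.916 and 1.44 in control 1 to 3, so the groups overlapped.

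Chad (chromosome 11, 94455873 to 94459953) encodes chondroadherin, a leucine-rich repeat protein of cartilage, bone and tendon that binds cells through integrins. It had the lowest log2 fold change of the 10. Its counts were 24, 151 and 27 in CKD 1 to 3, against 933, 1447 and 1019 in control 1 to 3. Scaled, these were 2.22, 15.9 and 2.03 CPM in CKD 1 to 3 and 66.9, 127 and 77.4 CPM in control 1 to 3, without overlap. Chad had -3.77 on the log2 scale (SE 0.86; edgeR adjusted p = 0.245, DESeq2 adjusted p = 2.43e-05), and -5.41 without CKD 2 (edgeR adjusted p = 0.0221). Chad lies wholly within Acsf2, a fatty acid activating enzyme gene on the opposite strand, under the same limit on strand as Scx and Bop1; Acsf2 had 7.49, 14.4 and 13.6 CPM in CKD 1 to 3 and 12.3, 17.7 and 10.9 CPM in control 1 to 3. The Acsf2 groups overlapped (log2 fold change -0.21, SE 0.35).

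**Figure D2:**
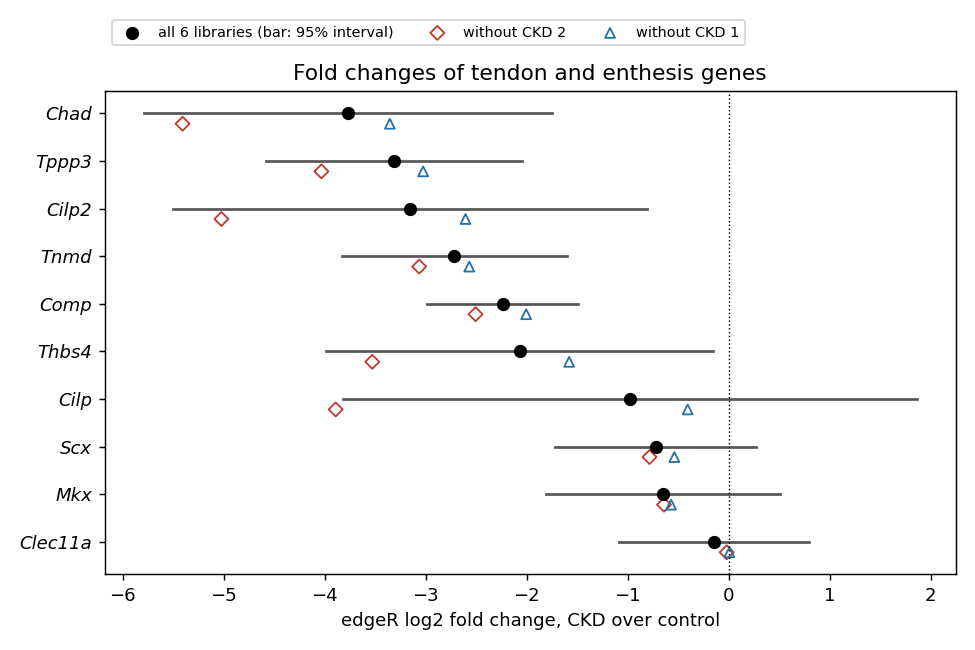
Fold changes of the 10 genes on the log2 scale, CKD over control, from edgeR with all 6 libraries (filled points, bars are 95% intervals), without CKD 2 (diamonds) and without CKD 1 (triangles). The intervals of Chad, Tppp3, Cilp2, Tnmd, Comp and Thbs4 lie below 0, those of Cilp, Scx, Mkx and Clec11a include 0, and the value of Cilp lies at -3.89 without CKD 2.

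Cilp and Cilp2 encode cartilage intermediate layer proteins, secreted glycoproteins of cartilage and other load-bearing tissue. Cilp2 (chromosome 8, 70333019 to 70340337) had 4, 120 and 31 counts in CKD 1 to 3, against 490, 472 and 766 counts in control 1 to 3. Scaled, these were 0.370, 12.6 and 2.33 CPM in CKD 1 to 3 and 35.1, 41.6 and 58.2 CPM in control 1 to 3. CKD 2 was again the highest of its group and again below all controls. Cilp2 had a log2 fold change of -3.16 (SE 0.996; edgeR adjusted p = 0.368, DESeq2 adjusted p = 0.00945). The DESeq2 call was lost without CKD 3 (adjusted p = 0.128), control 1 (0.0862) or control 3 (0.183), and edgeR passed Cilp2 without CKD 2 (log2 fold change -5.02, adjusted p = 0.0382).

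Cilp (chromosome 9, 65172462 to 65187887) behaved unevenly within the CKD group. Its counts were 7, 530 and 62 in CKD 1 to 3, against 499, 452 and 576 in control 1 to 3. At 55.6 CPM, CKD 2 exceeded the control range of 35.8 to 43.8 CPM, while CKD 1 had 0.647 CPM and CKD 3 had 4.66 CPM. For Cilp the log2 fold change was -0.98 with a 95% interval of -3.81 to 1.86 (edgeR adjusted p = 0.755), and DESeq2 gave Cilp no p. Without CKD 2 it was -3.89 (edgeR adjusted p = 0.0441), without CKD 1 it was -0.40 and without CKD 3 it was -0.50. The Cilp to Cilp2 ratio was 1.75, 4.42 and 2 in CKD 1 to 3 and 1.02, 0.958 and 0.752 in control 1 to 3. All 3 CKD ratios lay above the control ratios, a separation for which the exact permutation test over libraries, two-sided, gives p = 0.1 (0.183 adjusted over 11 ratios), the smallest that 3 against 3 allows. Counts of 4 and 7 stand behind the ratio of CKD 1, so that ratio is the least certain.

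Clec11a (chromosome 7, 43952111 to 43956326) encodes osteolectin, a secreted factor that promotes bone formation and is made by stromal and bone cells. It had 65.7, 66.5 and 120 CPM in CKD 1 to 3, against 101, 49.2 and 129 CPM in control 1 to 3. The groups overlapped over nearly the whole range. The log2 fold change was -0.14 with a 95% interval of -1.09 to 0.80 (edgeR adjusted p = 0.897), and its sign changed without CKD 1 (0.0075) or control 3 (0.16). Its receptor subunit Itga11, integrin alpha 11, likewise had overlapping groups, with 33.6 CPM on average in CKD and 31.3 CPM in control bone.

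Per gene length, the order of the 10 genes differed between the groups. In CKD bone Clec11a came first at 27.4 ± 10.03 FPKM, followed by Thbs4 at 12.2 ± 13.3 FPKM, Comp at 10.3 ± 3.14 FPKM and Tppp3 at 6.66 ± 4.27 FPKM (SD, n = 3 each). In control bone Tppp3 came first at 64.4 ± 25.9 FPKM, followed by Thbs4 at 50.6 ± 12.8 FPKM, Chad at 50.6 ± 18.1 FPKM, Comp at 47.2 ± 9.47 FPKM and Clec11a at 29.3 ± 13.1 FPKM (SD, n = 3 each). In the CKD group the libraries of each gene overlapped those of the next in the order throughout. In the control group they overlapped throughout except between Cilp and Scx and between Scx and Mkx.

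**Figure D3:**
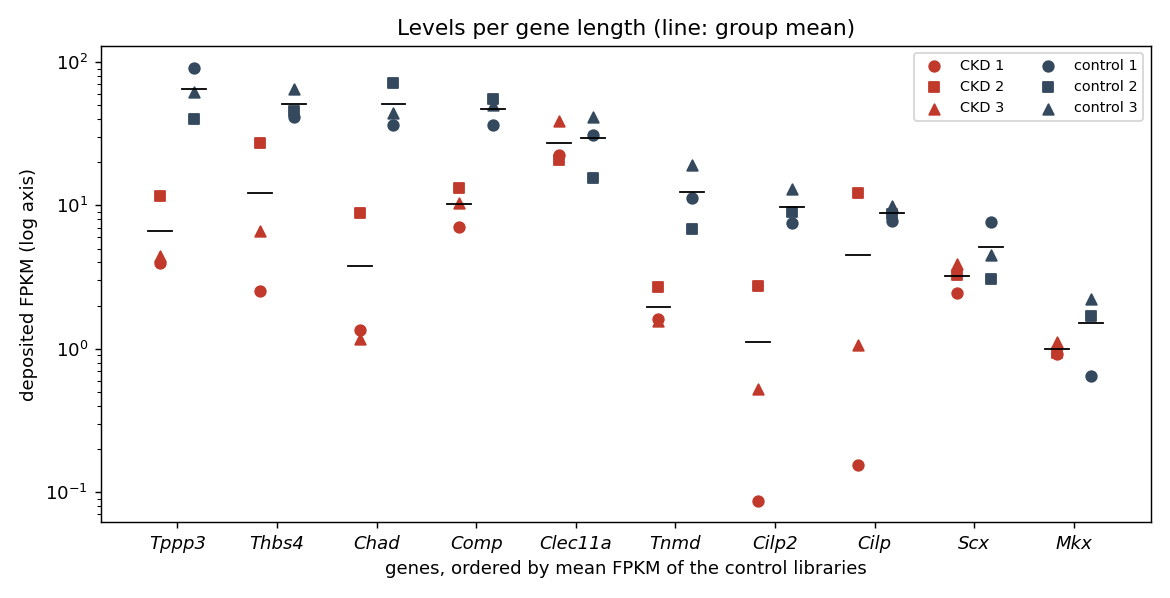
Deposited FPKM, a level scaled by gene length and library size, of each gene on a log axis, with genes ordered by their mean in the control libraries; points are libraries and lines are means of 3. Clec11a has its CKD points within the spread of its control points, while Tppp3, Chad and Comp have all CKD points below the control points.

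Set against Scx in the same library, Tnmd, Tppp3, Comp, Chad and Cilp2 were lower in every CKD library than in any control library, and Thbs4, Cilp, Mkx and Clec11a overlapped between the groups. Tnmd was at 0.442, 0.552 and 0.271 times the level of Scx in CKD 1 to 3, against 0.996, 1.49 and 2.87 times in control 1 to 3. Tppp3 was at 1.5, 3.25 and 1.06 times the level of Scx in CKD 1 to 3, against 11.0, 11.9 and 12.7 times in control 1 to 3. Each separated ratio had an exact permutation p of 0.1 (two-sided, 0.183 adjusted over the 11 ratios), the smallest this design allows, and each depends on Scx counts of 52 to 234.

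**Figure D4:**
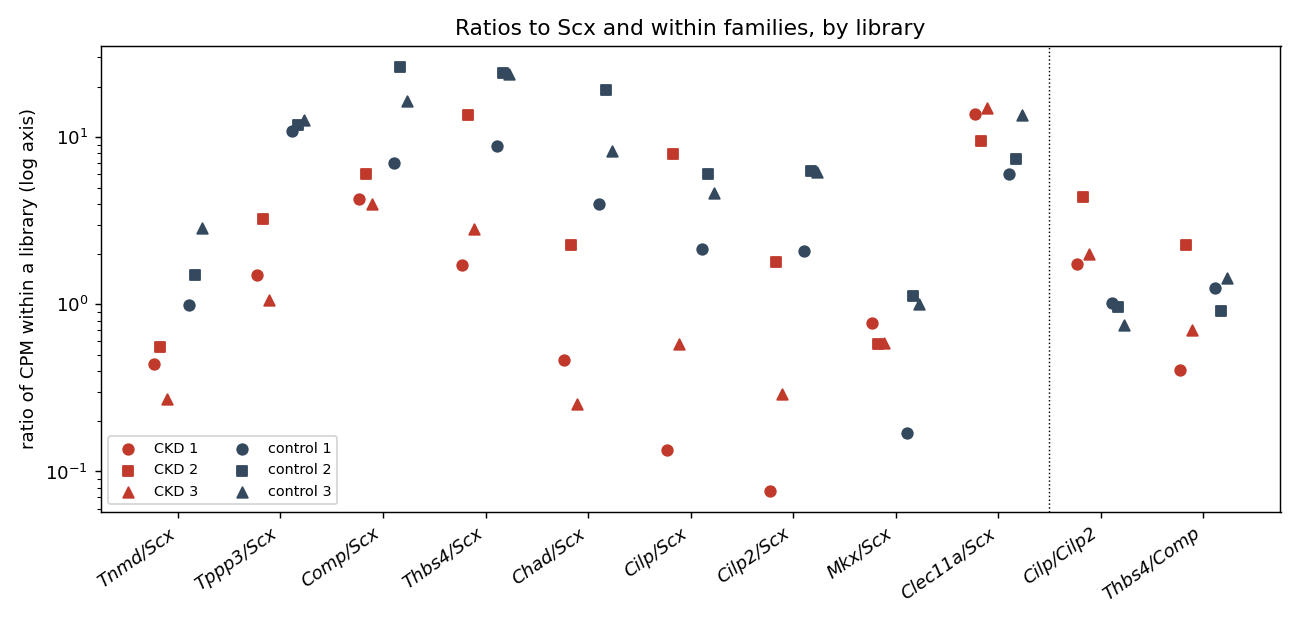
Ratio of the CPM of 2 genes in the same library, on a log axis: 9 genes over Scx left of the dotted line, and the family ratios Cilp over Cilp2 and Thbs4 over Comp right of it. The Tppp3 to Scx ratio is 1.06 to 3.25 in the CKD libraries and 11.0 to 12.7 in the control libraries, and the Cilp to Cilp2 ratio is higher in the CKD libraries.

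CKD 2 had the highest CKD level in 7 of the 10 genes, those other than Scx, Mkx and Clec11a, and CKD 1 had the lowest in 9 of 10. In 6 of the 10 (Tnmd, Tppp3, Comp, Thbs4, Cilp and Cilp2) the order was CKD 2 above CKD 3 above CKD 1, which is also that of the summed muscle genes in the CKD group. The share of all tested genes with these orders was not computed, so the counts do not set the 10 genes apart. CKD 2 had 98146 CPM of muscle genes, against 25392 CPM in control 2. That Tnmd, Tppp3, Comp, Thbs4, Chad and Cilp2 were lower in CKD 2 than in control 2 follows from their groups not overlapping. Whether muscle tissue plays a part in these differences was not tested. With the muscle level as a covariate, edgeR gave log2 fold changes of -2.13 for Tnmd, -2.80 for Tppp3, -2.07 for Comp, -1.68 for Thbs4, -3.67 for Chad and -2.81 for Cilp2, with adjusted p of 0.0524 (Tppp3) to 0.227 (Thbs4). With the kidney level as a covariate, 3 of the 10 had an unadjusted edgeR p under 0.05, namely Tnmd (-2.59), Tppp3 (-3.32) and Comp (-1.84). Those of Chad, Thbs4 and Cilp2 were -3.62 (SE 1.66), -1.13 (SE 1.51) and -1.98 (SE 1.95) and did not, and every edgeR adjusted p in that fit was 0.9998 for the 10 genes.

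**Figure D5:**
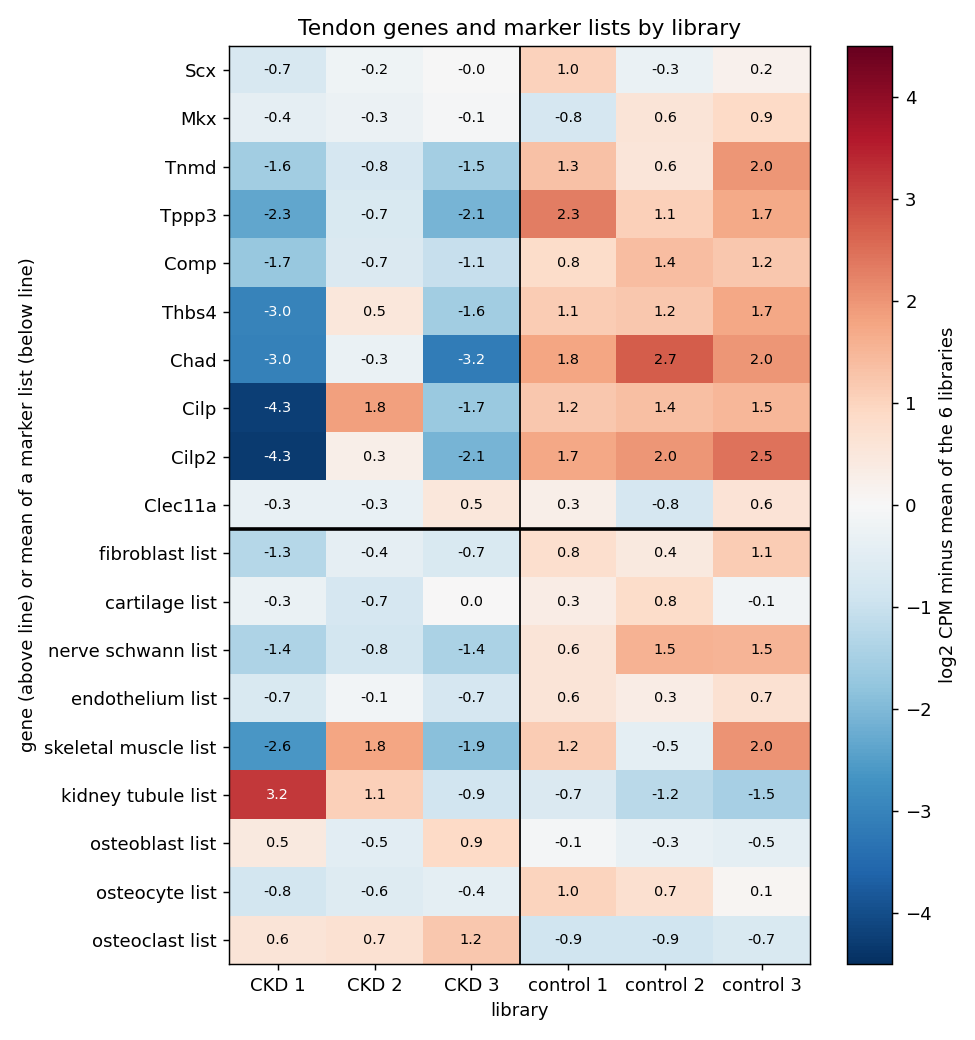
Log2 CPM of each gene, and mean log2 CPM of each marker list, minus the mean of the 6 libraries; red is higher and blue is lower, with CKD libraries left of the vertical line. The rows of Tnmd, Tppp3, Comp and Chad are negative in all CKD libraries and positive in all control libraries. So are the fibroblast, nerve and Schwann cell, endothelium and osteocyte lists. The muscle list is positive in CKD 2 and negative in control 2.

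Markers of several other cell types, at the bone surface and inside the bone, were also lower in the CKD libraries. The summed level of 14 fibroblast genes was 1190, 1599 and 1835 CPM in CKD 1 to 3 and 2718, 1879 and 4330 CPM in control 1 to 3. In edgeR 8 of the 14 had an unadjusted p under 0.05, all lower, against 6.49% of all tested genes lower (DESeq2 called 1.29% lower). The median log2 fold change of the 14 was -1.45, and DESeq2 passed 7, all lower. Aspn and Ogn are also counted among the matrix genes further on. Dpt, dermatopontin, was at 1.11, 5.25 and 3.003 CPM in CKD 1 to 3, against 27.9, 28.1 and 36.2 CPM in control 1 to 3. Of 10 nerve and Schwann cell genes, 9 were lower by the same rule, with sums of 131 to 181 CPM in the CKD libraries and 374 to 864 CPM in the control libraries. Their median log2 fold change was -2.19, beside -2.15 for the 10 tendon genes, and DESeq2 passed 7, against 5 of the tendon genes. A fall of this size was thus not particular to the tendon genes. Of 10 endothelial genes, 9 were lower, with a median log2 fold change of -1.13 and sums of 444, 676 and 427 CPM in CKD 1 to 3 and 1067, 922 and 1198 CPM in control 1 to 3; DESeq2 passed 5. Of 10 genes of osteocytes, the cells inside the bone, 6 were lower, with a median of -1.15, and DESeq2 passed 4. The 10 summed to 171, 137 and 200 CPM in CKD 1 to 3 and 528, 578 and 272 CPM in control 1 to 3. This sum was lowest of its group in CKD 2 and in control 3, where the summed level of the tendon genes was highest of its group. By mean log2 level, centred over the 6 libraries, the osteocyte list stood at -0.81, -0.59 and -0.43 in CKD 1 to 3. On that measure it was lowest in CKD 1, as were the tendon genes (-2.17), and in the control group again in control 3 (0.091). Of the 10 osteocyte genes, 5 had all CKD libraries below the controls. Sost overlapped, with 15.3, 19.6 and 12.3 CPM in CKD 1 to 3 and 108, 135 and 6.61 CPM in control 1 to 3. The 10 cartilage genes found in the table summed to 251 to 530 CPM in the CKD libraries and 195 to 491 CPM in the control libraries, sums to which Col11a2 and Col2a1 gave most. These collagens had log2 fold changes of 0.43 (SE 0.42) and -0.07 (SE 0.52). Of the 7 cartilage genes tested, 5 were negative and 1, Acan, had an unadjusted edgeR p under 0.05, with a median of -0.43. The log2 fold change of Acan was -4.70 (DESeq2 adjusted p = 1.23e-04), and Col9a2 too had all CKD libraries below the controls (-0.83, SE 0.66). The part of any of these cells in the results was not tested.

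Of 26 other matrix genes of tendon, edgeR had 8 lower and 1 higher at an unadjusted p under 0.05 and 0 after adjustment, with a median log2 fold change of -0.20, and DESeq2 passed 5, all lower. By the same rules edgeR had 6.49% of all tested genes lower and 4.22% higher, and DESeq2 called 1.29% lower. Of the 26, 9 had all CKD libraries below the controls and 2 had all above, against 8.86% and 7.68% of all tested genes. Those 2 were Lox (log2 fold change 0.81, SE 0.31), the 1 higher gene, and Tnc (0.66, SE 0.29). Kera, which encodes keratocan, a proteoglycan of tendon and cornea, had 0 counts in all CKD libraries, against 23, 37 and 33 counts in control 1 to 3. Taken against a floor of 3 counts over the CKD group, it was at least 27.1-fold lower. Prelp, a leucine-rich repeat proteoglycan, had 15.6 ± 8.81 CPM in the CKD libraries and 67.8 ± 13.1 CPM in the control libraries (SD, n = 3 each; log2 fold change -2.12, edgeR adjusted p = 0.180). Tnxb, tenascin X, had a log2 fold change of -2.63 and Eln, elastin, of -1.32. Among them are 6 genes of fibre-forming collagens, all with overlapping groups: Col1a1 had a log2 fold change of 1.01, Col1a2 of 0.91, Col5a1 of 0.76, Col5a2 of 0.59, Col11a1 of 0.98 and Col3a1 of -0.68.

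Among 21 upstream regulators of tendon, 17 were tested, of which edgeR had 7 lower and 1 higher at an unadjusted p under 0.05, with a median log2 fold change of -1.11. DESeq2 passed 1, Egr1, lower. The shares over all tested genes were 6.49% lower and 4.22% higher in edgeR and 1.29% called lower in DESeq2. Egr1, a zinc finger factor induced by load in tendon, had 31.0, 37.0 and 22.2 CPM in CKD 1 to 3, against 106, 36.8 and 215 CPM in control 1 to 3. Control 2 thus lay within the CKD range. The ligands Tgfb2 and Tgfb3, which drive tendon formation, had log2 fold changes of -1.02 (SE 0.28) and -1.25 (SE 0.37), each with all CKD libraries below the controls. The receptor gene Tgfbr1 had 0.96 (SE 0.29), with all CKD libraries above the controls (edgeR adjusted p = 0.343).

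Of 15 genes of enthesis fibrocartilage, 12 were tested, with 5 lower and 0 higher at an unadjusted edgeR p under 0.05 and a median log2 fold change of -0.67, and DESeq2 passed 4, all lower. Again 6.49% of all tested genes were lower and 4.22% higher in edgeR, and DESeq2 called 1.29% lower. Acan, which encodes aggrecan, the large proteoglycan of cartilage, had 0, 0.315 and 0.375 CPM in CKD 1 to 3, against 4.51, 11.3 and 3.27 CPM in control 1 to 3. Pthlh, the parathyroid hormone related signal made at attachment sites, had 0, 0.735 and 0.150 CPM in CKD 1 to 3, against 6.74, 2.64 and 5.54 CPM in control 1 to 3. Klf2 and Klf4, zinc finger factors known from enthesis development in mice, had log2 fold changes of -1.14 (SE 0.27) and -1.44 (SE 0.25). Sox9, the master factor of cartilage, had 0.23 (SE 0.55).

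Of 7 paralogues of the 10 genes, 5 were tested and 0 had an unadjusted edgeR p under 0.05 or passed DESeq2, with a median log2 fold change of -0.42. Over all tested genes 10.7% had such an edgeR p and DESeq2 called 1.93%, so 0 of 5 does not set the paralogues apart. Thbs2, thrombospondin 2, had 107, 141 and 179 CPM in CKD 1 to 3 and 148, 67.2 and 314 CPM in control 1 to 3, overlapping throughout. Thbs3 had -0.82 (SE 0.43), with all CKD libraries below the controls, Tppp -1.01 (SE 1.18) and Chadl, the paralogue of Chad, -0.42 (SE 0.65). Of 12 integrins, thrombospondin receptors and matrilins, 11 were tested and 1, Itga1, was lower at an unadjusted edgeR p under 0.05 (log2 fold change -0.83, SE 0.26, adjusted p = 0.362), with a median of 0.13. That is 9.09% of the 11, near the 10.7% of all tested genes. Of the 11, 2 had all CKD libraries below the controls, Itga1 among them, against 8.86% of all tested genes. Another 2 had all CKD libraries above the controls, against 7.68% of all: Itga10 (0.41, SE 0.22) and Itgav (0.44, SE 0.23).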

How the data were processed

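PolyA RNA of tibia cortex was measured in 3 libraries of mice on the adenine diet (CKD) and 3 on the control diet, grouped by the titles in the labels. The authors deposited raw counts per gene and library, a normalized signal (tested here: the counts divided by 1 size factor per library), FPKM values, and the p-values, adjusted p-values and log2 fold changes of their own comparison. Per the submitters' processing notes, edgeR 3.22.5, DESeq2, featureCounts 1.5.0-p3 and HISAT2 2.0.5 were used, in roles that the notes do not state. No source used here names the genome build or strand setting. Start and end matched GRCm38 for only 2.92% of the 52125 genes found in both, so file coordinates and RefSeq promoters were kept apart. An own DESeq2 fit gave the same 361 calls as the authors' deposited table.

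Counts were tested in R 4.3.3 with the two-sided quasi-likelihood F test of edgeR 4.0.16 (filterByExpr with a minimum count of 10, then TMM scaling and robust moderation, with diet as sole term), with Benjamini-Hochberg adjustment over all 15609 genes and a threshold of 0.05. Standard errors are the absolute log2 fold change over the square root of F, intervals use the fit's degrees of freedom, and CPM use the effective library sizes. The fit was tested on simulated data. The 10 genes, the lists and the tests were chosen with earlier results of these data known. All 10 genes are named whatever their result, and of each further list up to 4 genes with the smallest p. Col1a1, Col1a2, Col3a1, Col5a1, Col5a2, Col11a1, Col2a1, Col9a2, Col11a2, Lox, Tnc, Itga11, Sox9, Aqp1 and Sost were named after their values were seen, as were the ratios. Of the cell lists described in the text, all members but 1 cartilage gene were in the table. Of the lists not counted in the report, osteoclast had 8 of 10 higher at an unadjusted edgeR p under 0.05, muscle 0 of 15 tested, kidney 7 of 14 higher and osteoblast 1 of 10 higher. By this rule 4.22% of all tested genes were higher and 6.49% lower. The alternatives tried were limma-trend (limma 3.58.1) on log2(FPKM + 1) or log2(FPKM + 0.1), the Wald test of DESeq2 1.42.0, its size factors within edgeR, other count filters, non-robust moderation, removal of abundant genes, a block for the replicate number, the muscle or kidney level as a covariate, and each library left out.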

Additional observations from a re-analysis of the deposited data

How the results depend on the processing

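The number of the 10 genes passing edgeR, 0, was 5 by the DESeq2 Wald test and 2 with no filter on low counts (Comp and Tnmd), and 0 to 7 with 1 library left out; over all genes, 0 became 361 by DESeq2, 1 and 1 by limma-trend with either pseudocount, 66 with no filter, 3 with the muscle covariate, and 0 to 334 with 1 library left out. The number at an unadjusted p under 0.05, 6, was 3 with the kidney covariate and 4 to 7 with 1 library left out. Over all genes 1671 became 986 with the replicate block, 615 with the kidney covariate and 981 to 3243 with 1 library left out. The median log2 fold change of the 10 was -3.30 to -1.79 with 1 library left out and -1.48 with the kidney covariate. DESeq2 passed 4 to 7 of the 10 with 1 library left out, a run added after seeing the data. Signs changed for Cilp with the kidney covariate (0.35) and for Clec11a with the muscle (0.012) or kidney (0.29) covariate, without CKD 1 (0.0075) or control 3 (0.16), and in DESeq2 without CKD 1 (0.013), CKD 2 (0.0090) or control 3 (0.18); with 1 library left out Clec11a ran from -0.49 to 0.16 in edgeR and from -0.49 to 0.18 in DESeq2. The cause of these changes was not tested.

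Whether equal replicate numbers mark pairs was not settled. Same-numbered libraries deviated from their group means with correlations of -0.039, -0.452 and -0.165, and the other pairs ran from -0.325 to 0.387. With 3 libraries per group such correlations cannot decide whether samples were paired. With the replicate block 0 of the 10 passed edgeR and 6 had an unadjusted p under 0.05, with a median of -2.72, and DESeq2 with the block passed 7. Low counts limit Cilp, Cilp2, Tnmd and Chad in CKD 1, where they were 7, 4, 23 and 24. Other CKD libraries were low too: Cilp2, Tnmd and Chad had 31, 29 and 27 counts in CKD 3, and Tnmd had 37 in CKD 2. Mkx had 39 to 63 counts in the CKD libraries and 40 in control 1.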
